A study of Mus musculus with 4 samples.

Results

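The insulin-like growth factor system was described here by 8 genes, namely Igf1, its receptor gene Igf1r, and the binding protein genes Igfbp2, Igfbp3, Igfbp4, Igfbp5, Igfbp6 and Igfbp7. They were taken by gene symbol, through every non-control probe whose RefSeq accession mapped to one of them. The set itself was chosen with earlier results of these data known. These 8 genes were covered by 12 of the 55679 probes of the array, and were 8 of the 21367 genes that could be named. Aortic vascular smooth muscle cells (VSMC) of C57BL/6J mice, some wild type (WT) and others LAMP-2A knockout (L2AKO), were cultured from 5 aortas and used at passages 12 to 16. LAMP-2A is the splice form of the lysosomal membrane protein LAMP-2 that serves as the receptor of chaperone-mediated autophagy. Confluent cells of each genotype spent 24 h in DMEM with 5% LPDS (lipoprotein-deficient serum), either as controls or with low-density lipoprotein (LDL, 150 µg/ml as cholesterol) and bovine lipoprotein lipase (0.1 U/ml). The labels leave unsaid whether control cultures also received lipase, so LDL below stands for this treatment as labelled.

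The RNA of each of the 4 groups was pooled from a triplicate and hybridised to 1 Agilent mouse array with 1 colour. No spread between cultures could be measured, so no standard deviation, p-value or test between groups was possible, and every difference below is between single pooled arrays. How many culture lines of a genotype went into a pool is not stated in the labels. A gene was counted as different in a comparison when its value differed by at least 2-fold and its probe stood well above background on each array involved.

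IGF1 is a secreted growth factor that acts through the receptor tyrosine kinase encoded by Igf1r, which signals through the PI3K and AKT pathway and through RAS and ERK. IGF binding proteins hold IGFs outside the cell, where they can store them, block their access to the receptor or deliver them on proteolysis. In arterial smooth muscle, IGF1 is known to promote growth, migration and survival.

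The spots gave a mixed picture of the cell type. Of 9 smooth muscle markers, 5 were well above background on all arrays, while Myh11, Lmod1, Myocd and Des were not well above background on any. The summed signal of all 9, relative to the 75th percentile of each array, was 200 and 176 on the WT arrays and 141 and 136 on the L2AKO arrays. The 5 did not move together. In each condition 2 were at least 2-fold higher in L2AKO and 1 was lower. Their log2 differences ran from −1.73 to 1.27 without LDL and from −1.72 to 1.46 with LDL. Fibroblast markers were nearly all present, with 7 of 8 well above background on 3 arrays and 8 on the L2AKO LDL array, and a summed signal of 513 and 441 on the WT arrays and of 370 and 364 on the L2AKO arrays. Of 6 endothelial markers, 2 were well above background on each WT array and 3 on each L2AKO array. Of 6 macrophage markers, 3 were so on the WT control array and 4 on each other array. Cdh5, Tek and Emcn (endothelial), Ptprc and Adgre1 (macrophage) and all 4 adipocyte markers were not well above background on any array. Of Lamp2 itself, 1 probe gave 6.29, 6.38, 6.33 and 6.09 in the order WT control, WT LDL, L2AKO control and L2AKO LDL, and the other gave 3.68, 3.74, 2.30 and 2.41. Which probe lies in the part of Lamp2 that the knockout removes could not be settled here. The L2AKO LDL array was on a second slide and scan, so a difference from that array includes any difference between slides, and the 2 cannot be told apart.

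For the binding proteins that differed most between the genotypes, the 250 bases before the annotated transcription start are shown, to show what stretch of DNA lies before each gene. Sequences are RefSeq's on GRCm38.p6, 5′ to 3′ on the gene's own strand, and capitals mark matches on either strand to 5 letter strings, which do not overlap there. For the core promoter element bound by TBP the string was TATAAA. The E-box core was searched as CACGTG and the core of the GC box as GGGCGG. For the AP-1 site it was TGANTCA, where N is any base, and for the FOXO site GTAAACA. The Igfbp2 stretch is chr1:72824230-72824479 on the plus strand, that of Igfbp5 is chr1:72874866-72875115 on the minus strand, and that of Igfbp3 is chr11:7213924-7214173 on the minus strand.
Igfbp2 promoter: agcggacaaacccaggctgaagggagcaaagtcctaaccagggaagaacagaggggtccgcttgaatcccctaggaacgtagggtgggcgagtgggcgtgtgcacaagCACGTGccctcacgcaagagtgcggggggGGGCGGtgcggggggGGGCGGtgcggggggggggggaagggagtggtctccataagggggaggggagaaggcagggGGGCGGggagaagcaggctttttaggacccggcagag
Igfbp5 promoter: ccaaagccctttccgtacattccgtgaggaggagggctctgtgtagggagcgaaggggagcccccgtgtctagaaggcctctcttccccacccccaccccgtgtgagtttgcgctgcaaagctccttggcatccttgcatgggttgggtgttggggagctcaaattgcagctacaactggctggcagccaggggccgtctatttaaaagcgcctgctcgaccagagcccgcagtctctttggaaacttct
Igfbp3 promoter: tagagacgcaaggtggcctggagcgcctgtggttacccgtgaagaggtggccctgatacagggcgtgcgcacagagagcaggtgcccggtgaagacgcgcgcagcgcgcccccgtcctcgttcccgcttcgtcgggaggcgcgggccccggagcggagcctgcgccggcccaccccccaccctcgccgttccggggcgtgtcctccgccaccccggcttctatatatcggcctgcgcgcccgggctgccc

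The Igfbp2 stretch held CACGTG 142 bases before the start, and GGGCGG 113, 98 and 37 bases before it. RefSeq lists a further start of Igfbp2, whose upstream stretch held 1 TGANTCA match and no GGGCGG. In the Igfbp5 and Igfbp3 stretches none of the 5 letter strings occurred, which says only that these letters were not in these windows. Among all 32851 promoter stretches of the same length, the E-box core occurred in 6.02%, the GC box core in 32.7%, the TBP element in 12.4%, the AP-1 site in 6.75% and the FOXO site in 3.17%. GC content was 67.2% in the first Igfbp2 stretch, 58.8% in that of Igfbp5 and 73.2% in that of Igfbp3, against a median of 52.4% over all promoters. Over the 9 stretches of the 8 genes it ran from 49.6% for Igfbp6 to 77.6% for Igf1r. Igfbp2 and Igfbp5 are neighbours on chromosome 1 with 0 annotated genes between them and lie on opposite strands, and Igfbp3 lies next to Igfbp1 on chromosome 11 in the same way.

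In the values that follow, a level is log2 of the processed spot intensity minus the 75th percentile of the same array, and the 4 values always come in the order WT control, WT LDL, L2AKO control and L2AKO LDL. Levels were compared only within a probe. Probes with repeated spots had a median SD between spots of at most 0.054 on the log2 scale. For a difference of 2 spots this came to 0.08. Both values cover only the error between spots of the same array. They leave out the error between arrays, slides and cultures, so they are no measure of noise for the differences below.

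Of the 6 binding proteins, 5 differed between the genotypes by more than 2-fold without LDL, and Igfbp7, Igf1 and Igf1r by less. Without LDL, L2AKO cells had less Igfbp2, Igfbp4 and Igfbp5 mRNA and more Igfbp3 and Igfbp6 mRNA than WT cells. None of the members measured differed by 2-fold or more between LDL and control in either genotype. With LDL, Igf1 (by its brightest probe, though not by the mean over its probes, at 0.80) and Igfbp7 were also more than 2-fold higher in L2AKO, their values being lower with LDL in WT and higher with LDL in L2AKO.

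**Figure D1:**
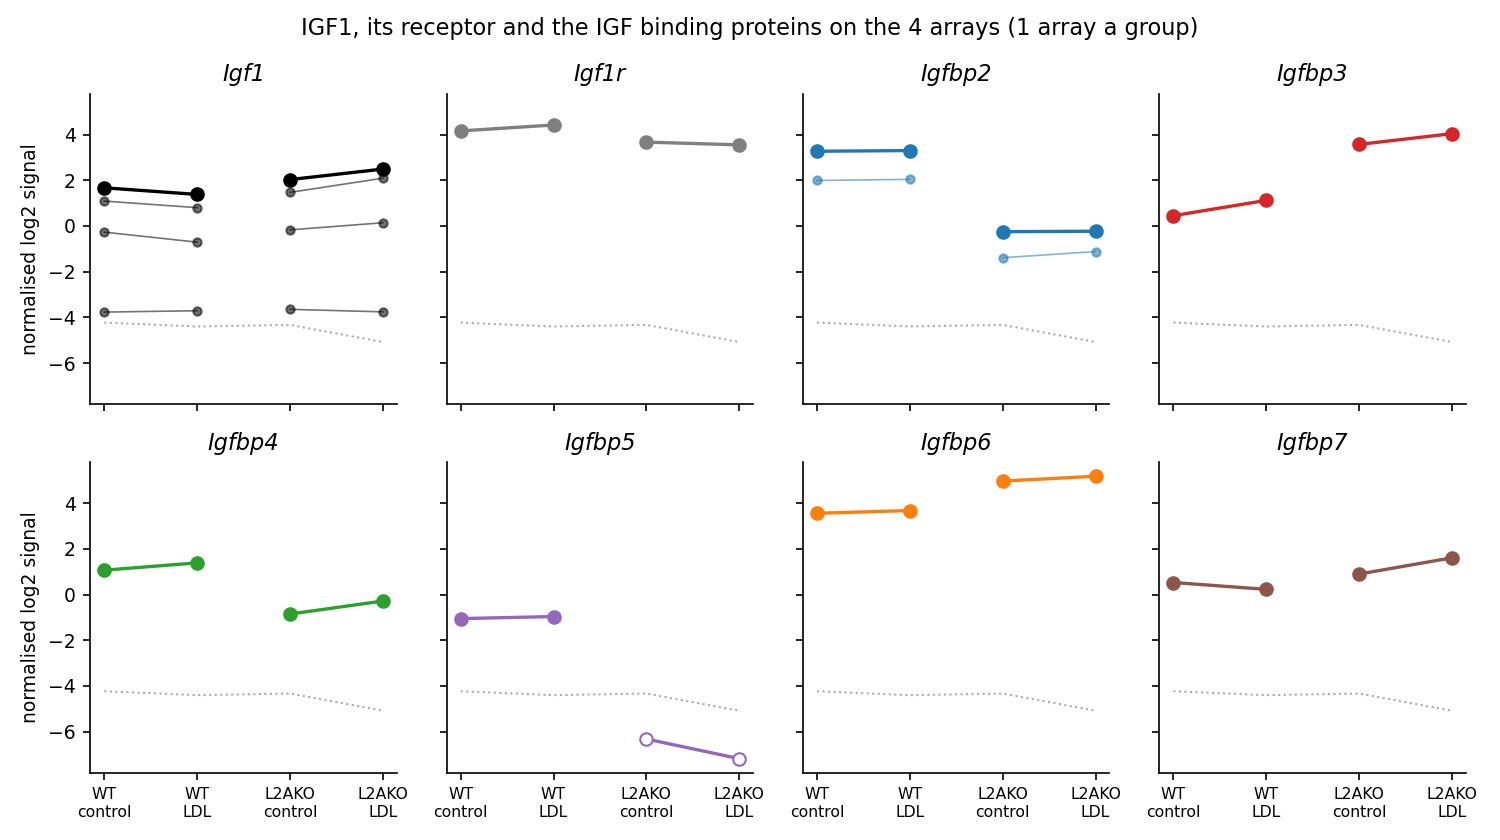
Normalised log2 signal of each of the 8 genes (panels) on the 4 arrays (x axis), with 1 array a group. Large points are the brightest probe of a gene and small points its other probes, open points are not well above background, lines join the arrays of a genotype, and the dotted grey line is the lowest value well above background on each array. The steps between WT and L2AKO of Igfbp2, Igfbp3, Igfbp4, Igfbp5 and Igfbp6 are wider than the steps between control and LDL.

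Igf1, the ligand, had 4 probes, each with 2 spots per array. The brightest gave levels of 1.67, 1.38, 2.03 and 2.49, which were intensities of 1020, 967, 1590 and 2440 before scaling. The L2AKO LDL array was the highest and the WT LDL array the lowest. Without LDL, Igf1 was 0.35 higher in L2AKO on the log2 scale (1.28-fold), and 50.9% of all measured genes differed by as much or more. With LDL it was 1.11 higher (2.16-fold), a difference that 893 of 12934 genes reached or passed upwards. LDL itself went with a difference of −0.29 in WT and of 0.47 in L2AKO.

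The other Igf1 probes allowed a check within the arrays. The next brightest gave levels of 1.09, 0.80, 1.47 and 2.09, and the one after it gave −0.27, −0.71, −0.17 and 0.14. All 3 brighter probes had their lowest value on the WT LDL array and their highest on the L2AKO LDL array, and their repeated spots lay at most 0.14 apart. Their differences between L2AKO and WT with LDL were 1.11, 1.29 and 0.85. The dimmest probe gave −3.77, −3.71, −3.65 and −3.76, close to the lowest values well above background, and its repeated spots lay up to 0.47 apart. It therefore showed no order of the groups beyond its spot error.

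Igf1r, the receptor, was measured by 1 probe, with levels of 4.16, 4.42, 3.67 and 3.55. Both L2AKO arrays were below both WT arrays. The difference between the genotypes was −0.50 without LDL (1.41-fold lower in L2AKO) and −0.88 with LDL (1.84-fold lower), both short of 2-fold. LDL went with 0.26 in WT and −0.12 in L2AKO. By its brightest probe Igf1 lay above WT in L2AKO and Igf1r below, under both conditions. Without LDL such differences were common, as 50.9% of measured genes differed by at least as much as Igf1 and 37.6% as Igf1r. With LDL they also compare 2 slides.

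Igfbp2, a binding protein with a preference for IGF2, had levels of 3.27, 3.30, −0.25 and −0.23, from intensities of 3070, 3640, 327 and 371. The 2 WT arrays were high and the 2 L2AKO arrays low. By this probe the LDL array differed from its control by 0.03 in WT and by 0.02 in L2AKO. Its message was 11.5-fold lower in L2AKO without LDL and 11.5-fold lower with LDL, a log2 difference of −3.52 in both. Of the 12593 genes measured without LDL, 56 were that low or lower in L2AKO, Igfbp2 included. The second Igfbp2 probe gave 1.99, 2.04, −1.39 and −1.12, with differences of −3.38 and −3.16, so both probes had the same order of genotypes. By this second probe LDL went with a difference of 0.05 in WT and of 0.26 in L2AKO.

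Igfbp5, the neighbour of Igfbp2 and a binding protein that smooth muscle cells secrete into their matrix, had levels of −1.05 and −0.96 on the WT arrays. On both L2AKO arrays it was not well above background, with measured values of −6.32 and −7.18. The difference is therefore a bound, set by the lowest signal well above background on the L2AKO array. Without LDL, Igfbp5 was at least 9.71-fold lower in L2AKO, against a lowest signal well above background of −4.33. With LDL it was at least 17.3-fold lower, against −5.08. The response to LDL was 0.08 in WT and could not be measured in L2AKO.

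Igfbp4, a binding protein that mainly inhibits IGF action and is cleaved by pappalysin, had levels of 1.07, 1.39, −0.85 and −0.28. The L2AKO arrays were both lower than the WT arrays. Its message was 3.79-fold lower in L2AKO without LDL (log2 difference −1.92) and 3.20-fold lower with LDL (−1.68). In both genotypes the LDL array was above its control, by 0.32 in WT and by 0.57 in L2AKO.

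Igfbp3, the main carrier of IGFs in serum and a protein with effects of its own on growth, differed in the other direction. Its levels were 0.45, 1.12, 3.57 and 4.04, from intensities of 437, 806, 4630 and 7150. Both L2AKO arrays were far above both WT arrays. Igfbp3 was 8.67-fold higher in L2AKO without LDL (log2 difference 3.12), where 77 of 12593 genes were that high or higher, and 7.58-fold higher with LDL (2.92). It was also the member with the largest difference with LDL in WT, 0.67 or 1.59-fold, a value that 116 of 12977 genes reached or passed. In L2AKO the LDL array was 0.47 above its control.

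Igfbp6, a binding protein that binds IGF2 in preference to IGF1, had levels of 3.56, 3.68, 4.97 and 5.18. The L2AKO arrays were higher than the WT arrays, by 1.41 without LDL (2.66-fold) and by 1.50 with LDL (2.82-fold). With LDL it was 0.13 higher in WT and 0.21 higher in L2AKO.

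Igfbp7, a related secreted protein that binds IGFs weakly, had levels of 0.53, 0.23, 0.90 and 1.61. As for Igf1, the WT LDL array was the lowest and the L2AKO LDL array the highest. The genotypes differed by 0.36 without LDL (1.29-fold) and by 1.38 with LDL (2.60-fold higher in L2AKO). LDL went with −0.30 in WT and with 0.72 in L2AKO (1.64-fold).

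Without LDL, 4 of the 7 members measured on both arrays differed by at least 2-fold between the genotypes, 2 higher and 2 lower in L2AKO, against 15.8% of all 12593 measured genes (7.56% higher and 8.21% lower). Igfbp5, for which only a bound was available, is not among these 7. Since the members were chosen with earlier results known, the counts here and below describe them and test nothing. With LDL, 6 of 7 differed by at least 2-fold, 4 higher and 2 lower, against 18.7% of 12934 genes (8.3% higher and 10.4% lower). When the mean over all probes stood for a gene, 5 were counted, since Igf1 then differed by 0.80. On the L2AKO LDL array the 8 spike-ins deviated by −1.19 to 0.63 on the log2 scale from their mean over the other 3 arrays, and 7 of them lay beyond all 3, whereas the widest range among those 3 was 0.50. The differences of Igf1 and Igfbp7 with LDL were upward, at 1.11 and 1.38. They are of similar size to the largest of these deviations, which was downward. The part of such deviations in these differences was not tested. The median difference of the members was 0.35 without LDL and 1.11 with LDL, against −0.01 and −0.05 over all genes. The 4 members that differed without LDL differed by 2-fold in the same direction with LDL, but the comparisons share no array and only the one without LDL lay on a single slide.

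**Figure D2:**
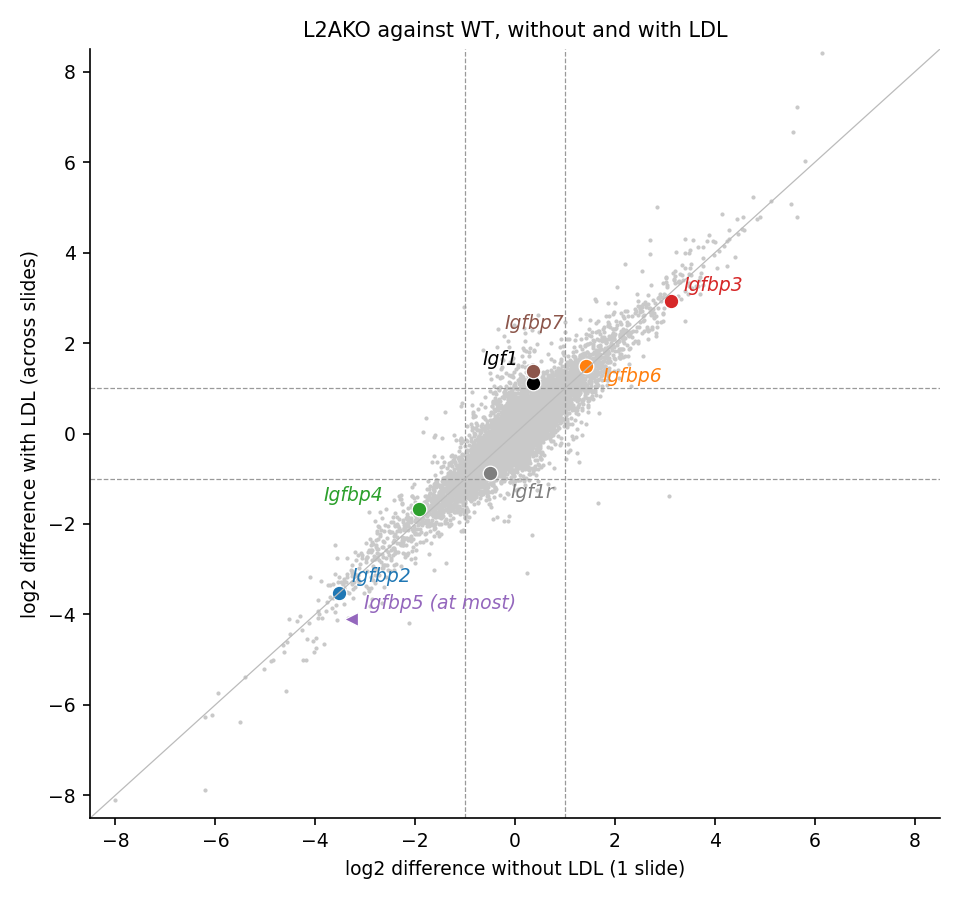
Log2 difference between L2AKO and WT without LDL (x axis, both arrays on 1 slide) and with LDL (y axis, arrays on different slides). Grey points are the genes measured on all 4 arrays, coloured points the members, the triangle the bound for Igfbp5, dashed lines 2-fold and the diagonal equal differences. Igfbp2, Igfbp3, Igfbp4 and Igfbp6 lie near the diagonal and past the 2-fold lines, and Igf1 and Igfbp7 lie above it.

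In WT cells, 0 of 8 members differed by 2-fold between LDL and control, against 1.27% of 12977 genes. In L2AKO cells the count was 0 of 7, against 2.26% of 13008 genes. At 1.5-fold, Igfbp3 in WT (3.71% of all genes) and Igfbp7 in L2AKO (7.89%) were the single members counted. The members' median difference was 0.10 in WT and 0.47 in L2AKO, against −0.05 and −0.08 over all genes. For all 7 members measured on 4 arrays the mean absolute difference between genotypes was larger than that between LDL and control, as it was for 72.9% of 12491 genes. The median absolute difference of these members was 1.46 between genotypes and 0.38 with LDL, against 0.38 and 0.17 over all genes.

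**Figure D3:**
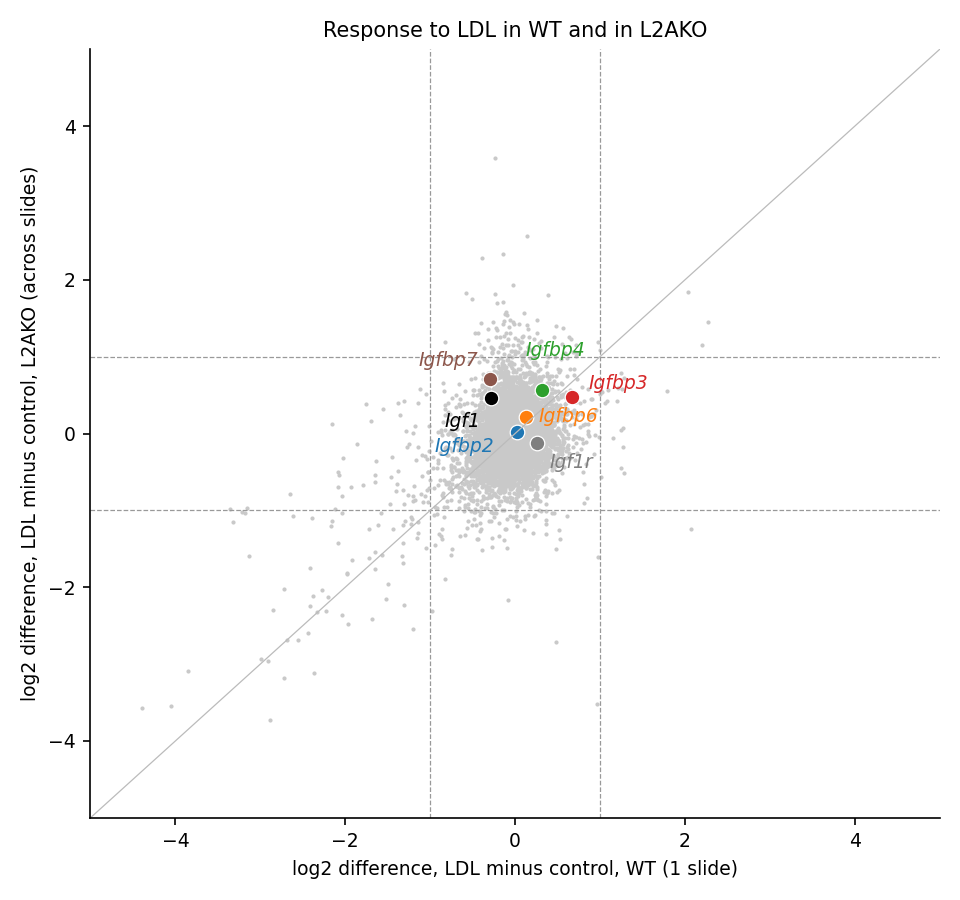
Log2 difference between LDL and control in WT (x axis, both arrays on 1 slide) and in L2AKO (y axis, arrays on different slides). Grey points are genes measured on all 4 arrays, coloured points the 7 members measured there, dashed lines 2-fold and the diagonal equal differences. All 7 members lie inside the 2-fold lines, with Igf1 and Igfbp7 lower with LDL in WT and higher with LDL in L2AKO.

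The LDL response in L2AKO minus that in WT passed 2-fold for 1 of 7 members, against 2.11% of 12491 genes. This was Igfbp7, at 1.02 or 2.02-fold, and 161 genes had a difference of responses as high or higher. Igf1 followed with 0.75 (1.69-fold), which made 2 of 7 members past 1.5-fold, against 8.76% of all genes, and the remaining 5 lay between −0.38 for Igf1r and 0.25 for Igfbp4. The value of Igfbp7 sat at the threshold, and it was below 2-fold when the background was modelled with normexp. In size it lay within the spike-in deviations on the L2AKO LDL array. The largest of these was downward, at −1.19, and the largest upward one was 0.63.

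Other genes of the pathway were taken as 8 lists with 102 genes in all, also chosen with earlier results of these data known. Without LDL, 13 of the 88 measured were at least 2-fold higher in L2AKO and 9 lower, which is 25.0% against the 15.8% of all genes. With LDL, 9 of 88 were higher and 13 lower, again 25.0%, against 18.7%. With LDL against control, 1 of the 91 measured on both arrays differed by 2-fold in WT, which is 1.1% against 1.27% of all genes. In L2AKO it was 1 of 89, or 1.12% against 2.26%. Genes well above background on 1 side only are outside these counts and are given as bounds.

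Among ligands and receptors other than the members, Igf2 differed most between the genotypes. Igf2, the second IGF and an imprinted gene, had levels of 1.81 and 1.20 on the WT arrays and was not well above background in L2AKO. In L2AKO it was at least 70.4-fold lower when LDL was absent and at least 77.7-fold lower when it was present. Igf2r, the receptor that clears IGF2, had levels of 4.57, 4.66, 4.38 and 4.19 and stayed under 2-fold. Insr, the insulin receptor, had −0.55, −0.01, 0.20 and −0.17, and neither genotype difference reached 2-fold. Insrr, an orphan relative of it, was well above background only on the WT LDL array. It was there at least 2.92-fold above the WT control and at least 5.24-fold above L2AKO with LDL. Both of these bounds use that same single reading.

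The list of serum partners and proteases of the binding proteins had 1 of 7 measured genes higher and 1 lower in L2AKO without LDL. Pappa2, a protease that cleaves Igfbp3 and Igfbp5 proteins, was 2.99-fold lower, at −0.91 in WT and −2.48 in L2AKO. Lrp1, an endocytic receptor that also binds Igfbp3 protein, was 2.07-fold higher, at 4.80 and 5.86. Cd93, a surface receptor that binds Igfbp7 protein, had −0.20 and 0.39 in WT and was not well above background on the L2AKO control array. Without LDL it was at least 17.5-fold lower in L2AKO. With LDL the log2 difference of Cd93 was −5.34. Its level on the L2AKO LDL array was −4.95, close to the lowest value well above background there, −5.08. With LDL the list had 2 of 8 higher and 4 lower, among them Pappa2 at −1.97, the PAPP-A inhibitor Stc2 at −1.20 and the metalloprotease Adam12 at 1.29. Stc1, another PAPP-A inhibitor, was lower in L2AKO, at least 1.33-fold when LDL was absent and at least 2.91-fold when it was present. Igfbp1 and Igfals, the liver's binding protein and acid-labile subunit, were not well above background on any array.

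Secreted proteins with an IGFBP-like domain were split, with 3 of 9 measured genes higher and 3 lower without LDL, and 2 higher and 3 lower with it. Ccn3, a matricellular protein of this family, had levels of −1.99, −3.26, 3.57 and 3.40. It was 5.56 higher in L2AKO without LDL and 6.66 higher with LDL on the log2 scale, and was the 1 pathway gene measured on both WT arrays that differed by 2-fold with LDL there (−1.27). Its difference of LDL responses was 1.10. Ccn6 was well above background only on the WT LDL array, at 0.93. It was there at least 35.7-fold above the WT control and at least 64.1-fold above L2AKO with LDL. Both bounds of Ccn6 use the same single reading on the WT LDL array. Esm1, a secreted proteoglycan, was not well above background in L2AKO and at least 4.70-fold lower there without LDL and 10.3-fold lower with LDL. Ccn1, a matricellular relative of Ccn3, was lower in L2AKO, by −1.63 and −1.75. The serine proteases Htra3 and Htra4 differed in opposite directions, Htra3 by 1.37 and 1.22 and Htra4 by −1.69 in both conditions.

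Of the growth hormone axis and the proteins that bind IGF mRNA, 4 of 8 were higher in L2AKO without LDL and 0 lower. Ghr, the growth hormone receptor, had levels of 3.52, 3.78, 5.23 and 4.61, and the log2 difference without LDL was 1.70. The mRNA-binding genes Igf2bp1, Igf2bp2 and Igf2bp3 differed by 1.43, 1.47 and 1.10. With LDL, Igf2bp2 alone of the 8 passed 2-fold, at 1.76.

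Inside the cell most pathway genes stayed within 2-fold. Of 11 measured receptor adaptors, 1 was higher in L2AKO without LDL. This was Grb10, an imprinted adaptor that dampens receptor signalling, with levels of −3.65, −5.17, 0.54 and 0.38, the second of them not well above background. It was 18.2-fold higher without LDL and at least 27.6-fold higher with LDL. The docking protein genes Irs1 and Irs2 were 0.76 and 0.92 higher without LDL, under 2-fold.

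Of 24 measured PI3K, AKT and mTOR genes, 2 were higher and 1 lower in each condition. Pik3r1, the regulatory subunit of PI3K, was lower by −1.26 and −1.27, and Phlpp1, a phosphatase that acts on AKT, was higher by 1.42 and 1.55. The third gene was Deptor, an mTOR inhibitor, at 1.01 without LDL, and Tsc2, a brake on mTOR, at 1.30 with LDL.

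Of 14 measured RAS and ERK genes, 0 were higher and 2 lower without LDL, and 1 was higher and 3 lower with LDL. Hras was lower by −1.68 and −1.49, and Dusp6, an ERK phosphatase that ERK activity induces, by −1.28 and −1.68. Nras was lower with LDL, by −1.13. Outside the count, Spry2, which was not well above background in WT, was at least 6.07-fold higher in L2AKO without LDL and 5.62-fold higher with LDL. Spry4, like Spry2 an inhibitor of the RAS pathway, was the 1 pathway gene measured on both L2AKO arrays that differed by 2-fold with LDL there, at 1.47, and its difference of LDL responses was 1.22. Its levels were low, at −3.89, −3.63, −4.06 and −2.59, against a lowest value well above background of −4.33 on the L2AKO control array. Both differences use the L2AKO LDL array, whose spike-ins deviated by −1.19 to 0.63. Of 13 measured genes known to be raised by FOXO factors, which AKT restrains, 2 were higher and 2 lower without LDL, and 1 higher and 2 lower with LDL. Gadd45a was higher by 2.64 and 2.31 and Txnip by 1.27 without LDL, whereas Klf15 was lower by −2.15 and −2.63 and Sesn3 by −1.49 and −1.19. The list medians, which lay between −0.01 and 0.15 in these 3 lists, were close to that of all genes.

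**Figure D4:**
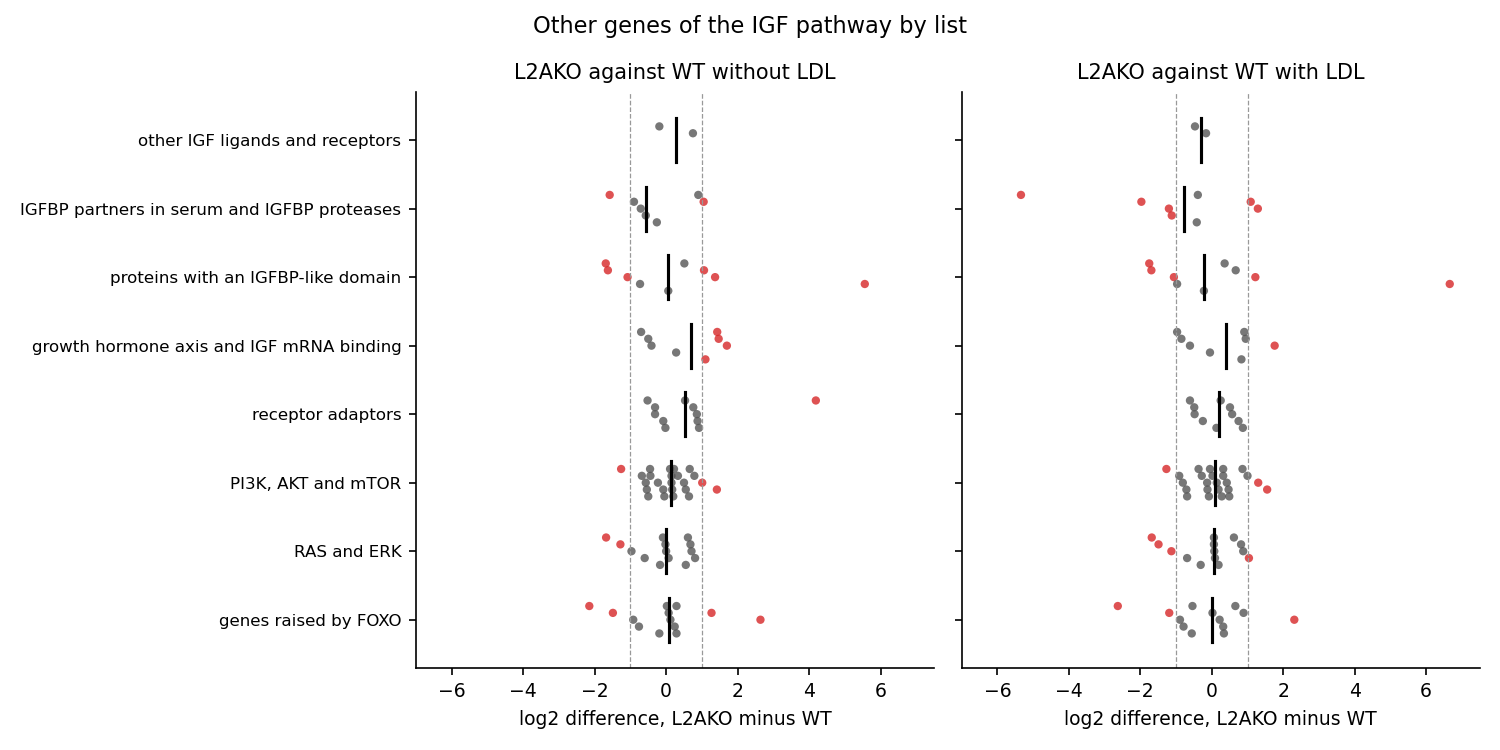
Log2 difference between L2AKO and WT (x axis) of the measured genes in 8 lists of the IGF pathway (rows), without LDL (left) and with LDL (right). Each point is a gene, red where it differed by at least 2-fold, black bars are list medians and dashed lines mark 2-fold. Most genes lie within 2-fold, and Ccn3 lies farthest to the right in both panels.

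Proliferation markers and some markers of other cells moved with the genotype as well. All 5 proliferation markers were lower in L2AKO in both conditions, with summed signals of 56.6 and 51.0 in WT and 6.61 and 7.75 in L2AKO. Of 6 mesothelial and epithelial markers, 5 were measured on both control arrays, 3 lower and 1 higher in L2AKO by 2-fold, and their summed signal was 60.7 and 54.7 in WT and 17.4 and 19.8 in L2AKO. Of 7 measured fibroblast markers, 2 were higher and 2 lower in L2AKO by 2-fold without LDL, from −1.69 for Dcn to 4.28 for Serpinf1, and 2 were higher and 3 lower with LDL. Their summed signal was lower on both L2AKO arrays than on both WT arrays. The endothelial sum lay between 4.51 and 5.73 and the macrophage sum between 7.13 and 9.51, with no gap between the genotypes in either sum. Single markers did differ. Pecam1 was well above background on both L2AKO arrays and on neither WT array. Of the measured macrophage markers, 1 was higher in L2AKO in each condition, by 1.85 and 1.79, and 0 were 2-fold lower. With LDL, 1 of 2 measured endothelial markers was higher, by 1.10. The part of these markers in the binding protein differences was not tested, and in bulk RNA fewer cells of a type and less RNA per cell cannot be told apart.

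The genes whose profile over the 4 arrays was most like that of a member were found by the distance between log2 profiles centred on their mean, for the 6 members that spanned at least 2-fold. For Igfbp2 they were Garnl3 (distance 0.043), H2bc14 (0.095) and Shcbp1 (0.112), with 47 genes within 0.5. Igfbp3 had 12 genes within 0.5, led by Arap3 (0.340), Sema3e (0.343) and Phldb3 (0.344). Igfbp4 was most like Fbxw27 (0.100), Krt18 (0.137) and Rad54b (0.163), with 111 genes within 0.5. Of the more common profiles, Igfbp6 had 462 such genes, led by Wnt10b (0.056), Wnk4 (0.066) and Zc3h14 (0.071). Igfbp7 had 414, led by Gm12298 (0.079), Krt15 (0.118) and Sstr5 (0.139). Igf1 had 1336, among them Spa17 (0.089) and Gap43 (0.099). With 4 arrays such a likeness is a description of a few values, and many genes share it.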

How the data were processed

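The members and the gene lists were chosen with earlier results of these data known. Per the file headers, the deposited scanner files held a linear spot intensity that Agilent Feature Extraction 10.7.3.1 had background-subtracted, with 62976 spots per array and other columns used as flags. The value table deposited by the authors held a signal on a linear scale with medians of 57.4 to 57.6 and served as an alternative; its between-array scaling is unknown. RMA and oligo are named per the submitters' processing notes, without versions. Of 55679 probes, 28330 were named through RefSeq accessions (GRCm38.p6); 27349 stayed unnamed, and no probe coordinates were used.

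Control and outlier-marked spots (105 to 156 per array) were left out, spots of a probe were averaged, and log2 of the deposited intensity minus the array's 75th percentile was taken (318.8, 370.6, 389.4 and 433.8 before the logarithm). Between 47.2% and 52.0% of probes were well above background, and 0 spots were saturated. Of 8 spike-ins measured on all arrays, 7 on the L2AKO LDL array lay outside the range of the other 3. The brightest probe stood for a gene. The number of arrays limits the precision.

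Besides the members and Lamp2, up to 4 genes per list with the highest difference of at least 2-fold were named in each comparison, and 3 genes of like profile per member, of which 1 is not reported here. The pathway genes Igf2, Igf2r, Insr, Irs1, Irs2, Igfbp1, Igfals, Insrr, Stc1, Ccn6, Esm1 and Spry2 were outside that rule. They and the cell type markers named singly, among them Pecam1, Dcn and Serpinf1, were named after their values were seen. Of the promoter strings, the GC box, AP-1 and FOXO strings were added later. Alternatives were other scalings, normexp with an offset of 50 (limma 3.58.1, R 4.3.3), the deposited values, other filters, the mean over probes, outliers kept, and a 1.5-fold threshold. Scripts used Python 3.11.15 and were tested on simulated data.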

Additional observations from a re-analysis of the deposited data

Results flagged for a closer look

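For 3 of the members the single LDL arrays moved in opposite directions in the genotypes. Igf1 differed with LDL by −0.29 in WT and by 0.47 in L2AKO on the log2 scale. Igf1r differed by 0.26 in WT and by −0.12 in L2AKO, where its direction turned with the authors' deposited values (0.01). Igfbp7 differed by −0.30 in WT and by 0.72 in L2AKO. With 1 array a group the difference between genotypes was not tested, and the L2AKO values also compare 2 slides.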

How the results depend on the processing

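Each value was recomputed under 10 alternatives. None of the 11 member differences of at least 2-fold reversed, and 0 of 360 member values moved by 1.5-fold or more. Many of these values could not move. The looser filters and the 1.5-fold threshold leave a member's value as it is. The mean over probes can change only members with several probes. Igfbp2 ranged from −3.52 to −3.23 without LDL and Igfbp3 from 2.96 to 3.20. With LDL, Igf1 ranged from 0.80 to 1.30 and was under 2-fold only as the mean over its probes. Small LDL differences changed sign for Igfbp5 in WT (−0.01 to 0.15), for Igf1r in L2AKO (−0.12 to 0.01) and for Igfbp2 in the difference of responses (−0.07 to 0.11).

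Counts over all genes depended more on the setting. In the order LDL in WT, LDL in L2AKO, genotype without LDL, genotype with LDL and difference of responses, they were 165, 294, 1986, 2414 and 264. With normexp the LDL counts were 92 and 122 and the difference of responses 90, with 0 members. With the authors' deposited values these 3 counts were 95, 145 and 116. Asking for 1 array well above background gave 602, 764, 3081 without LDL, and 1357 for the difference of responses. With no filter the 5 counts were 1357, 1600, 3983, 4548 and 2575. At 1.5-fold they were 481, 1026, 3997, 4832 and 1094, and the members counted were 1 with LDL in WT, 1 in L2AKO and 2 in the difference of responses. The looser filters and threshold admit more genes by construction; for the others the cause was not tested.

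The share of counted genes that were higher was 19.4%, 41.2%, 47.9%, 44.4% and 65.9%. Scaling by the median gave 55.7%, 60.0% and 79.1% for LDL in L2AKO, genotype with LDL and difference of responses, and moved the median of all genes there by 0.11, 0.20 and 0.11. Scaling by probes well above background gave 53.6% for LDL in L2AKO. Normexp gave 8.70% for LDL in WT and 83.3% for the difference of responses, and the deposited values 84.5% for the latter.

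No paired analysis was possible because each group was 1 pooled array, so leaving out a replicate does not apply. The lowest log2 value well above background was −4.23, −4.40, −4.33 and −5.08, and Igfbp5 in L2AKO has only a bound below it.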
